A study of Rattus norvegicus with 12 samples.

Results

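Mt-nd6 (ENSRNOG00000029042) is the mitochondrial gene of NADH dehydrogenase subunit 6, a membrane subunit of respiratory complex I. It was taken by its name from the deposited count table, where it is 1 of 30560 genes and 1 of the 13 genes named as mitochondrial mRNAs. The gene was singled out with its levels in these libraries, and its ratio to the other 12 mitochondrial mRNAs, already known. Both are therefore given as descriptions, with no test.

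The libraries came from hindlimb muscle of 1 male, wild-type Wistar Kyoto rat aged 14 weeks, homogenised and pooled before it was divided. The study asked how mitochondria can be purified from skeletal muscle for RNA profiling. There were 4 preparations with 3 libraries each, and every preparation was treated with RNase A, which degrades RNA that is not protected. Mitochondria of the crude_RNase group were collected by differential centrifugation. Those of the IP_RNase group were immunoprecipitated on magnetic beads. The IP_RNase_ProK group was captured in the same way and also given proteinase K, which digests exposed protein. The mitoplast_RNase group held mitoplasts, mitochondria without their outer membrane, made from captured organelles. Libraries were made from 6.3 ng of RNA for crude_RNase and from 40 ng for the other groups. Because the aliquots shared 1 animal and 1 homogenate, the errors below measure the spread between preparations, not between animals.

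The mitochondrial genome is a small circle whose strands are known as heavy and light, and both are transcribed into long RNAs that are cut into mRNAs, rRNAs and tRNAs. Mt-nd6 is the one mRNA read from the opposite transcription unit to the rest, the unit started at the light-strand promoter. The remainder of that unit is mostly noncoding RNA complementary to the other mRNAs and is removed by a complex of the helicase SUV3 and the nuclease PNPase. In mammals the mRNA of Mt-nd6 lacks the poly(A) tail that the other mitochondrial mRNAs carry, and it lies beside Mt-nd5 and Mt-cyb, which are read from the other strand. How strand was handled in the counting is unknown from the labels, so reads of Mt-nd6 and of RNA complementary to it cannot be told apart.

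Depth ran from 6583452 to 7123045 counts in the crude_RNase libraries and from 3325430 to 4563254 in the other 9. Levels are in CPM, counts per 1000000 on library sizes corrected by TMM, the trimmed mean scaling of edgeR. Markers of skeletal muscle fibres were present in every group: 10 of the 12 listed genes were measured, with a summed level of 7458 to 20663 CPM in crude_RNase and 1634 to 3232 CPM in the other groups. Ttn, the giant sarcomere protein titin, stood at 14025 CPM in crude_RNase 2, against 2229 and 3316 in the other crude libraries. In the captured libraries Ttn stood at 1160 to 2580 CPM and made up most of the sum. Each of the other measured fibre genes was lower in every captured library than in every crude one. Acta1, skeletal actin, stood at 1535 to 1901 CPM in crude_RNase and at 21.5 to 37.1 CPM in the captured libraries. The 5 listed fibroblast genes summed to 1256 to 1350 CPM in crude_RNase and 282 to 310 CPM elsewhere. Erythroid genes, of which 4 of 7 were measured, summed to 153 to 175 CPM in crude_RNase and 133 to 151 CPM elsewhere. The endothelial and macrophage lists, all measured, overlapped between crude_RNase and the other groups, at 503 to 565 and 270 to 300 CPM. The part of these other RNAs in the values of Mt-nd6 was not tested.

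With TMM scaling, Mt-nd6 was most abundant in crude mitochondria and about an order of magnitude lower after bead capture. It was lower again in the captured organelles that had received proteinase K or been made into mitoplasts. Scaled by library size, the drop on capture was smaller, with means of 4585 CPM in crude_RNase and 1037 CPM in IP_RNase. In the crude_RNase libraries it had 24640, 37061 and 32539 raw counts, or 5527, 9921 and 9120 CPM. In IP_RNase it had 3773, 2019 and 5697 counts, or 879.8, 502 and 1305 CPM. In IP_RNase_ProK the counts were 1928, 1856 and 1912, or 345, 412 and 409 CPM. In mitoplast_RNase they were 1840, 2174 and 1308, or 384, 427 and 286 CPM. The 3 crude libraries stood above the other 9, and the 3 IP_RNase libraries stood above those of both further treated groups, whose ranges overlapped.

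The mean of the crude libraries was 8189 ± 2340.4 CPM and that of IP_RNase 896 ± 401 CPM (SD, n = 3 each). For IP_RNase_ProK the mean was 388 ± 37.9 CPM, and for mitoplast_RNase 366 ± 72.1 CPM. In that order crude_RNase and IP_RNase were separate. IP_RNase and IP_RNase_ProK did not overlap, although their means lay 1.26 SD of the IP_RNase libraries apart. The last 2 groups differed by less than their spread. The spread was widest in IP_RNase, where the highest library had 2.60 times the level of the lowest, against 1.80 in crude_RNase, 1.49 in mitoplast_RNase and 1.19 in IP_RNase_ProK. As a share of all counts, Mt-nd6 took 0.459% ± 0.0756 in crude_RNase and 0.104% ± 0.0425 in IP_RNase. The shares were 0.0473% ± 0.00439 for IP_RNase_ProK and 0.0442% ± 0.00858 for mitoplast_RNase. Counting error was small beside this spread: the 95% Wilson interval of the lowest share, that of mitoplast_RNase 3, ran from 0.0330% to 0.0368%. These levels are relative to the other RNA of a library, so fewer mitochondria in a preparation and less RNA per mitochondrion cannot be told apart.

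**Figure D1:**
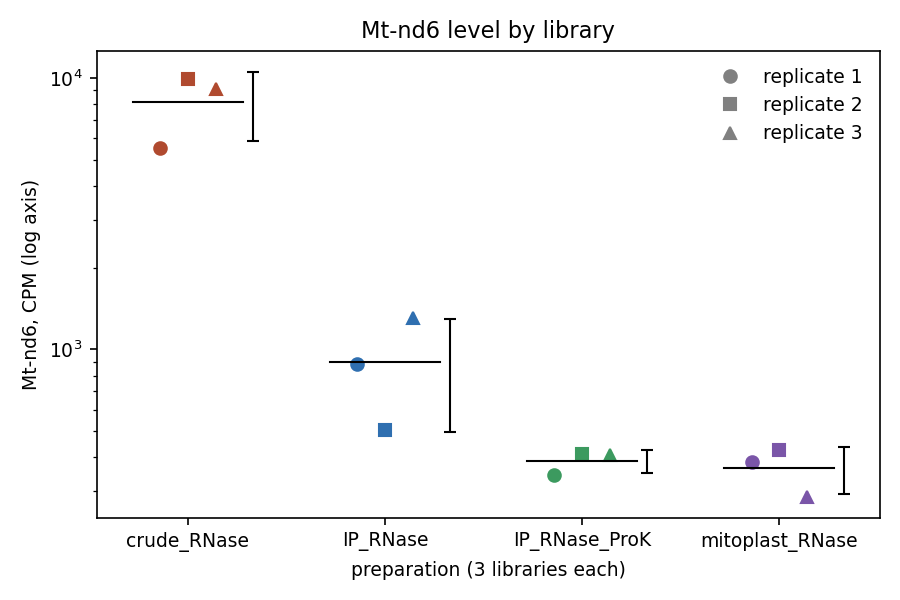
Mt-nd6 level in CPM (vertical log axis) in each of the 12 libraries, grouped by preparation. Symbols mark the replicate, horizontal lines the group mean and the bars beside them the SD (n = 3). The crude_RNase libraries lie between 5527 and 9921 CPM, above the other 9, which lie between 286 and 1305 CPM.

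Mt-nd6 was well above the level at which genes not normally used in muscle were counted. The median olfactory receptor gene, one of a family of nasal odorant sensors with 1115 members in the table, had 30 to 49 counts per library. Mt-nd6 had 725 to 1123 times that median in crude_RNase and 54.6 to 142 times in IP_RNase. In IP_RNase_ProK it had 39.3 to 46.6 times and in mitoplast_RNase 34.4 to 47.3 times the median.

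The fitted log2 fold change of Mt-nd6 against crude_RNase was -3.19 ± 0.19 (SE; edgeR fit on all 12 libraries) in IP_RNase, -4.40 ± 0.20 in IP_RNase_ProK and -4.48 ± 0.20 in mitoplast_RNase. These comparisons share the crude libraries and are set side by side only. Scaling by library size in place of TMM, which moved the median of all genes tested to 1.03, 1.09 and 1.08 in the same comparisons, gave -2.14, -3.27 and -3.37. Among the captured preparations the log2 fold change was -1.21 ± 0.18 for IP_RNase_ProK against IP_RNase and -1.29 ± 0.18 for mitoplast_RNase against IP_RNase. It was -0.08 ± 0.18 for mitoplast_RNase against IP_RNase_ProK, within 1 SE of 0. The values against IP_RNase moved with single libraries of it: without IP_RNase 3 they were -0.83 and -0.92, and without IP_RNase 2 they were -1.49 and -1.58.

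The other 12 mitochondrial mRNAs were lower than in crude mitochondria as well, and most of them by more than Mt-nd6. In IP_RNase against crude_RNase their log2 fold changes ran from -4.04 (Mt-co1, the catalytic subunit of cytochrome c oxidase) to -2.67 (Mt-atp8, a small ATP synthase subunit), with a median of -3.72, beside a median of 0.01 over all genes tested. Mt-atp8 alone was less reduced than Mt-nd6, and Mt-nd4l, a small complex I subunit, was next to it at -3.21 ± 0.15. In IP_RNase_ProK and mitoplast_RNase the medians of the 12 were -4.90 and -4.94, and both Mt-atp8 and Mt-nd4l were less reduced than Mt-nd6. Their values were -3.62 and -4.30 in IP_RNase_ProK and -3.51 and -4.28 in mitoplast_RNase. Mt-co1 and Mt-co3, both cytochrome c oxidase subunits, lay at the other end, at -5.37 and -5.29 in IP_RNase_ProK and -5.28 and -5.33 in mitoplast_RNase. Mt-atp8 had 46 to 152 counts in the captured libraries, beside 37 to 49 for the median olfactory receptor gene. The part of that level in the fold changes of Mt-atp8 was not tested.

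**Figure D2:**
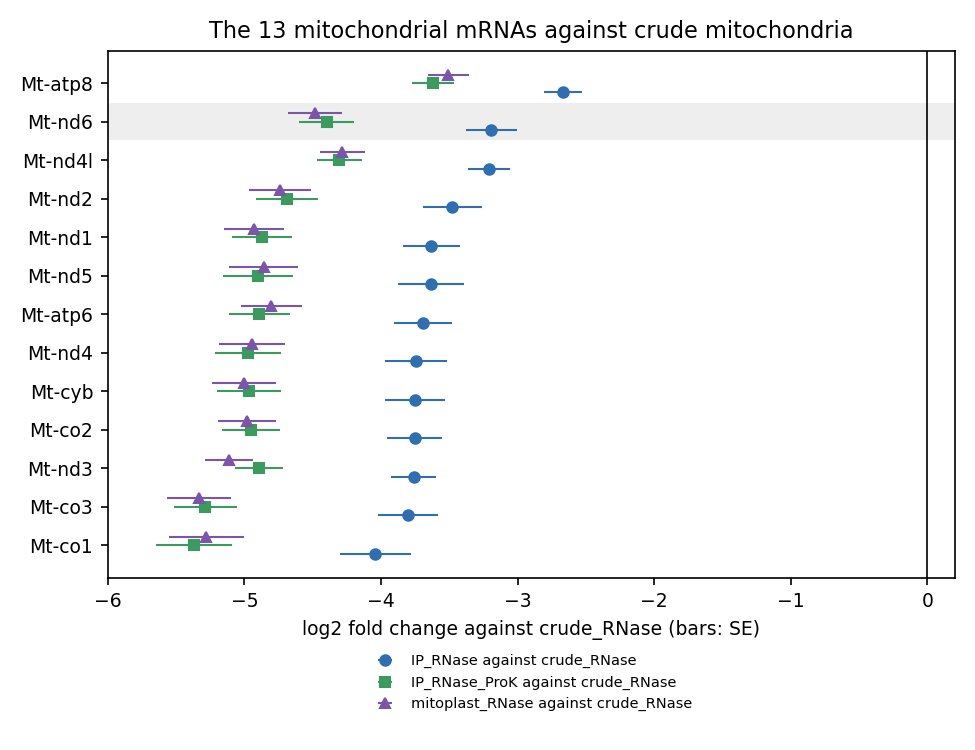
Log2 fold change of each of the 13 mitochondrial mRNAs (rows) against crude_RNase, for IP_RNase, IP_RNase_ProK and mitoplast_RNase, with SE bars from the edgeR fit. Mt-nd6, shaded, is at -3.19, -4.40 and -4.48, to the right of most other mRNAs, while Mt-co1 is at -4.04, -5.37 and -5.28.

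Within the captured preparations Mt-nd6 moved with the rest. Its log2 fold change of -1.21 for IP_RNase_ProK against IP_RNase stood beside a median of -1.21 for the other 12, with 7 of them lower and 5 higher. For mitoplast_RNase against IP_RNase, -1.29 stood beside a median of -1.23, with 3 lower and 9 higher. For mitoplast_RNase against IP_RNase_ProK, -0.08 stood beside a median of 0.00, and the other 12 ran from -0.22 to 0.11.

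The ratio of Mt-nd6 to the other mitochondrial mRNAs does not depend on how libraries are scaled. As a percentage of the summed counts of the other 12, Mt-nd6 stood at 1.66%, 1.84% and 1.94% in the crude_RNase libraries and at 2.80%, 2.43% and 2.68% in IP_RNase. In IP_RNase_ProK the values were 2.92%, 3.02% and 2.45%, and in mitoplast_RNase 2.52%, 2.89% and 2.37%. The 9 bead-captured libraries thus lay between 2.37% and 3.02%, above the 3 crude libraries, while the 3 captured groups overlapped one another. The mean was 1.81% ± 0.144 for crude_RNase and 2.64% ± 0.188 for IP_RNase (SD, n = 3 each). It was 2.80% ± 0.304 for IP_RNase_ProK and 2.59% ± 0.268 for mitoplast_RNase. The captured groups thus stood at 1.45, 1.54 and 1.43 times the crude mean. Counting error did not span the gap, since the 95% Wilson interval ran from 1.92% to 1.97% in crude_RNase 3, the highest crude library, and from 2.24% to 2.50% in mitoplast_RNase 3, the lowest captured one. Such intervals cover counting error only, because PCR copies are not independent molecules. Depth and input moved with this difference: the crude libraries had 6.3 ng of input and the larger totals, and their part in it cannot be told apart from that of the preparation.

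**Figure D3:**
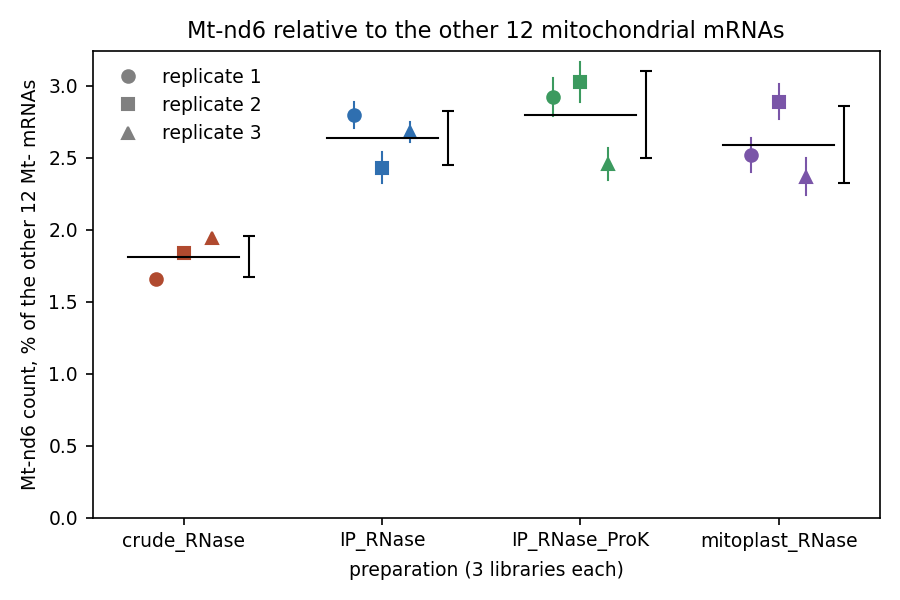
Mt-nd6 count as a percentage of the summed counts of the other 12 mitochondrial mRNAs (vertical axis from 0) in each library. Thin lines through the symbols are 95% Wilson intervals, horizontal lines group means and the bars beside them the SD (n = 3). The crude_RNase libraries lie between 1.66% and 1.94%, and the 9 captured libraries between 2.37% and 3.02%.

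The ratio varied far less between libraries than the level did. In IP_RNase the level spanned 2.60-fold and the ratio 1.15-fold, and over the 9 captured libraries the level spanned 4.55-fold and the ratio 1.28-fold. In IP_RNase_ProK this did not hold, as the level spanned 1.19-fold and the ratio 1.23-fold. The third library of that group had 77934 counts of the other 12 mRNAs, against 66002 and 61387 in the first and second, but 1912 counts of Mt-nd6 against 1928 and 1856. IP_RNase 3, which had the largest share of the other 12 mRNAs among captured libraries at 5.44% of all counts, had a ratio of 2.68%, between those of IP_RNase 1 and IP_RNase 2.

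**Figure D4:**
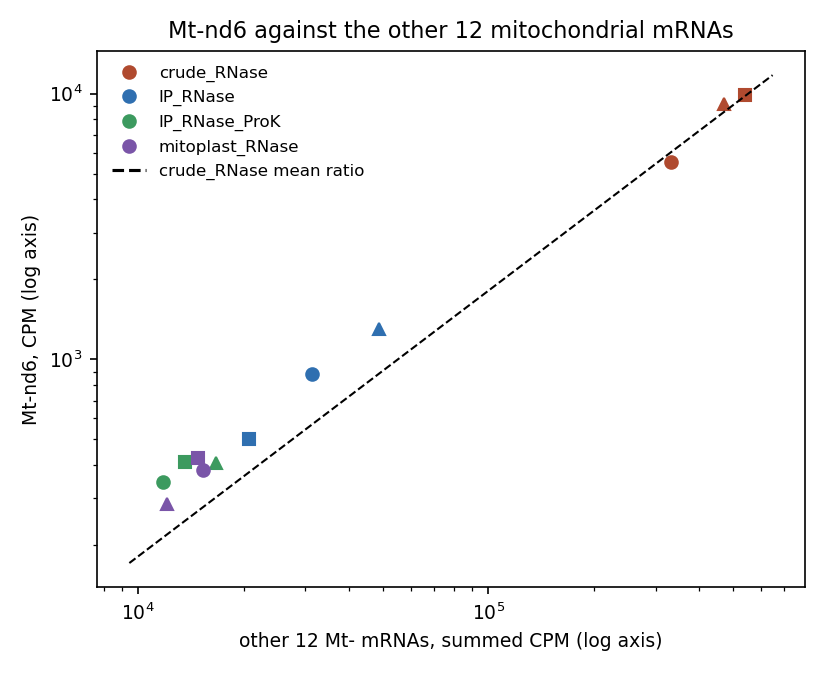
Mt-nd6 level against the summed level of the other 12 mitochondrial mRNAs, both in CPM on log axes, for the 12 libraries. The dashed line is the mean crude_RNase ratio of 1.81%. The crude libraries lie along it, and the 9 captured libraries lie above it over a 4.55-fold range of Mt-nd6 level.

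The higher ratio in captured libraries held against most of the other mRNAs taken singly, though not against Mt-nd4l or Mt-atp8. In IP_RNase the count ratio of Mt-nd6 to a single mRNA was above its crude mean for 11 of the 12. The 11 include Mt-nd4l, at 1.00 times, and the median was 1.44 times. In IP_RNase_ProK and mitoplast_RNase the count ratio was above its crude mean for 10 of 12, with medians of 1.44 and 1.37 times. Ratios in all 3 libraries lay above all 3 crude libraries for 10, 10 and 9 of the 12 mRNAs in the 3 groups. Of all genes tested, 6.36%, 6.49% and 5.54% were called in the same comparisons with crude_RNase at an edgeR adjusted p under 0.05. These shares count calls on levels of single genes, not ratios that do not overlap, and the 12 ratios all share the count of Mt-nd6. Nothing is read from the numbers of ratios, because the choice of the gene used these contrasts.

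The ratio to Mt-co1 had the largest increase in IP_RNase and IP_RNase_ProK, and that to Mt-co3 the largest in mitoplast_RNase. Relative to Mt-co1, Mt-nd6 stood at 8.75%, 10.1% and 9.92% in crude_RNase and at 19.9%, 17.1% and 16.2% in IP_RNase. In IP_RNase_ProK it stood at 21.3%, 21.2% and 15.8%, and in mitoplast_RNase at 15.2%, 19.1% and 16.2%. Every captured library was above every crude one, and the group means were 1.85, 2.03 and 1.76 times that of crude_RNase. Relative to Mt-co3 the means were 1.52, 1.91 and 1.82 times the crude mean.

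Its neighbours on the opposite strand gave smaller shifts than Mt-co1 and Mt-co3. Both lay near the medians over the 12 mRNAs, which were 1.44, 1.44 and 1.37 times the crude mean. Relative to Mt-nd5, the complex I subunit encoded beside it, Mt-nd6 stood at 11.1%, 11.7% and 12.7% in crude_RNase and at 17.3%, 15.5% and 15.8% in IP_RNase. The values were 18.3%, 17.8% and 15.1% in IP_RNase_ProK and 15.0%, 16.8% and 14.4% in mitoplast_RNase. All captured libraries were above all crude ones, and the group means were 1.37, 1.44 and 1.30 times the crude mean. Relative to Mt-cyb, cytochrome b of complex III and the neighbour on the other side, the means were 1.45, 1.51 and 1.44 times the crude mean. Relative to Mt-nd2, another complex I subunit, they were 1.20, 1.24 and 1.20 times, and mitoplast_RNase 3, at 17.3%, lay within the crude range of 15.6% to 18.3%.

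Against Mt-nd4l the ratio hardly moved. The group mean was 1.00 times the crude mean in IP_RNase, 0.94 in IP_RNase_ProK and 0.87 in mitoplast_RNase, and captured libraries at 222% to 287% overlapped the crude ones at 242% to 305%. Against Mt-atp8 the direction was the opposite, with means 0.73, 0.59 and 0.52 times that of crude_RNase. Mt-atp8 had 46 to 152 counts in the captured libraries, where the median olfactory receptor gene had 37 to 49, and 498 to 633 counts in crude_RNase. The part of that level in its ratio was not tested.

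**Figure D5:**
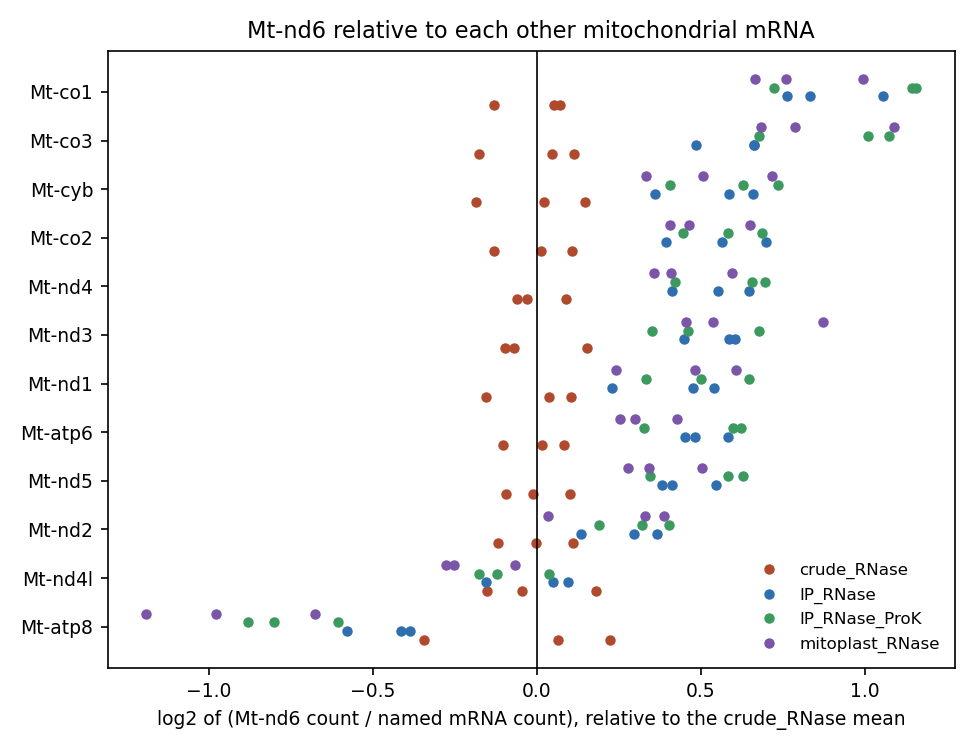
Log2 of the count ratio of Mt-nd6 to each other mitochondrial mRNA (rows), relative to the mean ratio of the crude_RNase libraries, with 1 point per library. Captured libraries lie to the right of the crude ones for most rows, far to the right for Mt-co1 and Mt-co3, around 0 for Mt-nd4l and to the left for Mt-atp8.

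The same measure was taken for each of the 13 mRNAs against the summed counts of the remaining 12. Mt-nd6, Mt-nd2, Mt-atp8 and Mt-nd4l were the 4 whose share was larger in all 9 captured libraries than in all 3 crude ones. For Mt-nd2 the group means were 1.23, 1.27 and 1.22 times the crude mean in IP_RNase, IP_RNase_ProK and mitoplast_RNase, smaller factors than those of Mt-nd6. For Mt-nd4l they were 1.44, 1.62 and 1.62 times and for Mt-atp8 1.95, 2.58 and 2.696 times. The larger share of Mt-atp8 rests on 46 to 152 counts in captured libraries, where the median olfactory receptor gene had 37 to 49. The part of that level in the share of Mt-atp8 was not tested. Mt-co1 and Mt-co3 were the 2 with smaller shares in every captured library, with means 0.75, 0.72 and 0.77 times the crude mean for Mt-co1. The other 7 overlapped between captured and crude libraries.

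The most counted genes of the mitochondrial chromosome without a gene symbol were ENSRNOG00000043866 and ENSRNOG00000030478. The count table lists them under sequence identifiers and does not say which RNAs these are. Within the captured groups the ratio of Mt-nd6 to these genes varied more than its ratio to the other mRNAs. In IP_RNase, ENSRNOG00000043866 itself ran from 15670 to 117777 counts, and Mt-nd6 from 2019 to 5697. Mt-nd6 stood at 3.49%, 3.51% and 2.75% of the counts of ENSRNOG00000043866 in crude_RNase and at 12.4%, 12.9% and 4.84% in IP_RNase. It stood at 13.2%, 8.46% and 6.97% in IP_RNase_ProK and at 4.23%, 6.15% and 6.08% in mitoplast_RNase. The third IP_RNase library was far from the first and second in this ratio but not in the ratio to the other mRNAs. Every captured library stood above the crude ones, with or without it. For ENSRNOG00000030478 the means were 4.88% ± 0.555, 14.9% ± 7.56, 11.8% ± 4.63 and 6.72% ± 1.68 (SD, n = 3 each), and mitoplast_RNase 1, at 4.83%, lay within the crude range. The table holds 24 such mitochondrial genes, of which 20 had a mean under 10 counts, and the tRNAs read from the same strand are not analysed here.

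The genes most like Mt-nd6 across the 12 libraries were the mitochondrial mRNAs. Among 18762 genes with a mean of at least 50 counts, the 10 with the highest Pearson correlation of log2 CPM with Mt-nd6 were Mt-nd5, Mt-nd4l, Mt-nd2, Mt-nd4, Mt-co2, Mt-atp6, Mt-nd1, Mt-nd3, Mt-co3 and Mt-cyb, with r from 0.998 to 0.996. All 12 were among the first 13 genes, with ENSRNOG00000029145, another mitochondrial gene without a gene symbol, between Mt-co1 and Mt-atp8 at 0.995. These points share the gap between crude and captured libraries, and 372 genes had an r over 0.9. Within the 9 captured libraries, 11 of the 12 were among the first 20 genes, led by Mt-nd4l at 0.988, and 53 genes had an r over 0.9. With each group mean removed, Mt-atp6, Mt-nd5, Mt-nd2, Mt-nd4 and Mt-nd4l led with r from 0.969 to 0.961, and Mt-atp8 was 46th at 0.885.

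Nuclear genes that make, process and degrade mitochondrial RNA were called lower at a share near that of all genes. The list held 46 symbols, and 45 genes with 44 of them were tested. In IP_RNase against crude_RNase 2 of the 45 fell and 0 rose, and 43 were not called (edgeR quasi-likelihood, Benjamini-Hochberg over all genes), with 13 of the 45 at an unadjusted p under 0.05. The share of all genes at that unadjusted threshold was not computed, so nothing is read from the 13. Of all genes tested, 5.09% were called lower and 1.26% higher. The list's median log2 fold change was -0.05, and that of all genes 0.01. Under library size scaling 45 were called higher and 0 lower, where 94.8% of all genes were called higher. Scaled on olfactory receptor genes, 0 were higher and 14 lower, where 16.9% of all genes were called lower. Lrpprc, which with Slirp protects the polyadenylated mitochondrial mRNAs, averaged 63.5 ± 1.82 CPM after capture and 78.9 ± 5.99 CPM in crude_RNase (SD, n = 3 each). Its log2 fold change was -0.31 ± 0.09 (edgeR adjusted p = 0.0162), which was 0.72 under library size scaling, and leaving out crude_RNase 2 or IP_RNase 2 ended its call (edgeR adjusted p = 0.0818 and 0.0706). Rexo2, which degrades short RNA fragments in mitochondria, was at -0.45 ± 0.13 (edgeR adjusted p = 0.0211) and at 0.57 under library size scaling. Leaving out crude_RNase 3, IP_RNase 1 or IP_RNase 2 ended that call (edgeR adjusted p = 0.0898, 0.0747 and 0.123). DESeq2 did not make it either, at an adjusted p of 0.0801.

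The calls of the other named genes of this list depended on the scaling. With TMM none of these 8 passed between IP_RNase and crude_RNase, where 1.26% of all genes were called higher and 5.09% lower. Under library size scaling all 8 were higher, as were 94.8% of all genes, so that did not set these 8 apart. Scaled on olfactory receptor genes, Fastk, Grsf1, Polg2, Ssbp1 and Tfam were lower, as were 16.9% of all genes. Fastk, known to be needed for the mRNA of Mt-nd6, averaged 31.1 ± 1.47 CPM after capture and 36.1 ± 3.65 CPM in crude_RNase (SD, n = 3 each). Its log2 fold change was -0.22 ± 0.11 with TMM (edgeR adjusted p = 0.273), 0.80 under library size scaling and -0.44 on olfactory receptor genes (edgeR adjusted p = 3.62e-06 and 0.0149). Grsf1, an RNA-binding protein of mitochondrial RNA granules, was at -0.21 ± 0.10 with TMM (edgeR adjusted p = 0.261), 0.81 under library size scaling and -0.43 on olfactory receptor genes (edgeR adjusted p = 7.77e-07 and 0.0129). With TMM, Pnpt1, which encodes PNPase, was at -0.20 ± 0.16, Supv3l1, which encodes SUV3, at -0.04 ± 0.12 and Slirp at 0.06 ± 0.20 (edgeR adjusted p = 0.566, 0.907 and 0.925). Of the others with the smallest p, the DNA-binding protein Ssbp1 was at -0.53 ± 0.19 and the transcription factor Tfam at -0.40 ± 0.15 (edgeR adjusted p = 0.0897 and 0.11). The DNA polymerase subunit Polg2 was at -0.39 ± 0.14 (edgeR adjusted p = 0.0978). Over the 12 libraries Ssbp1 and Slirp averaged 50.8 and 47.5 counts, where the median olfactory receptor gene had 30 to 49. Tfam, Pnpt1 and Polg2 averaged 84.3, 87.8 and 92.3 counts. The part of that background level in the values of these genes was not tested.

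Part of the nuclear complement of complex I was lower in IP_RNase than in crude_RNase. The list held 36 symbols, and 33 genes with 32 of those symbols were tested. Of the 33, 16 fell, 0 rose and 17 were not called, where 5.09% of all genes were called lower. The list's median was -0.47, and that of all genes 0.01. At an unadjusted p under 0.05 there were 24, for which the share of all genes was not computed. Under library size scaling 21 were higher and 0 lower, below the 94.8% of all genes called higher there. Scaled on olfactory receptor genes, 27 were lower, beside 16.9% of all genes. Ndufv1, which binds NADH, averaged 26.2 ± 3.60 CPM after capture and 48.1 ± 2.24 CPM in crude_RNase (SD, n = 3 each). Its log2 fold change was -0.88 ± 0.11 (edgeR adjusted p = 1.50e-08), and it was 0.15 under library size scaling. Ndufv2, of the same module, was at -1.21 ± 0.17, and the accessory subunits Ndufa6 and Ndufb7 were at -1.37 ± 0.19 and -1.10 ± 0.19 (edgeR adjusted p = 2.54e-07, 2.29e-07 and 2.00e-05). Under library size scaling these 3 were at -0.17, -0.34 and -0.08 and did not pass. Over the 12 libraries Ndufa6, Ndufb7 and Ndufv2 averaged 49.1, 50.1 and 64.7 counts, where the median olfactory receptor gene had 30 to 49. These averages include the captured libraries, in which the 3 genes were lower. The part of that background level in their fold changes was not tested. The size of their change is therefore not set beside that of Mt-nd6.

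Neither list held a call among the captured preparations. Between IP_RNase_ProK and IP_RNase, 0 of 45 and 0 of 33 were called by edgeR, and 0 and 0 by DESeq2, with 2 and 0 at an unadjusted p under 0.05. All genes tested were called at 0.14% there. Between mitoplast_RNase and IP_RNase, 0 of 45 and 0 of 33 were called by either tool, with 2 and 1 at an unadjusted p under 0.05, where 0.155% of all genes were called. Between mitoplast_RNase and IP_RNase_ProK there were 0 and 0 by either tool, with 0 and 0 at an unadjusted p under 0.05, and 0% of all genes were called (11 genes when only these 2 groups were fitted). The list medians lay between 0.00 and 0.07 in these 3 comparisons. The share of all genes at an unadjusted p under 0.05 was not computed for them. The members with the smallest p against IP_RNase were 1 of 2 genes named Nsun4, an rRNA methyltransferase, at 0.32 ± 0.12 in IP_RNase_ProK, and Trub2, a pseudouridine synthase, at 0.30 ± 0.13 in mitoplast_RNase (edgeR adjusted p = 0.39 and 0.477). In mitoplast_RNase Ndufv1 was at 0.26 ± 0.12 (edgeR adjusted p = 0.511).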

How the data were processed

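RNA of 12 mitochondrial preparations was sequenced after ribosomal RNA depletion. The authors deposited read counts per Ensembl gene, whole numbers that are not normalised, for which the submitters' processing notes list the build mRatBN7.2 and the tools STAR 2.7.11a, HTSeq, cutadapt 4.6 and FastQC 0.74. Which annotation, strand setting and rule for multi-mapped reads applied was not given in the sources used here. Libraries were grouped by title, since the source labels of crude mitochondria name immunoprecipitation, and 0 columns of other samples were present.

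Counts were fitted with edgeR 4.0.16 in R 4.3.3 (quasi-likelihood, TMM, 1 model of 4 groups). filterByExpr with a minimum count of 10 kept 26483 of 30560 genes. Benjamini-Hochberg adjustment ran over all tested genes, threshold 0.05. The SE is the absolute log2 fold change divided by the square root of F, with dispersions moderated over all genes. Correlations used log2 CPM with a prior count of 2. Wilson intervals came from SciPy 1.17.1. The script was tested on simulated data with the same mean profile in every group apart from randomly changed genes. That test did not cover the difference in mitochondrial share between crude_RNase and the captured libraries.

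Alternatives were DESeq2 1.42.0, library size and olfactory receptor gene scaling, no filter, 2 groups only, a replicate block and leaving out each library. Replicate pairs differed beyond counting noise (chi-square over its degrees of freedom 1.24 to 12.1). The gene and both lists were chosen with earlier results of these data known. Named list genes were 6 fixed ones and those with the smallest p, up to 4 per list and comparison, of which the leading ones are printed. No sequence, length or position of Mt-nd6 was used here, so levels are not compared between genes.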

Additional observations from a re-analysis of the deposited data

How the results depend on the processing

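Of 216 recomputed values, 193 stayed within 1 SD of the replicates, or within 1.5 times for counts of genes. The 193 include the calls of both lists between captured preparations, which were 0 in every setting. Ratios to a geometric mean or to fewer mRNAs are on another scale and could only count as moved. The total is therefore no measure of how stable the results were. Library size scaling gave Mt-nd6 4585 CPM in crude_RNase, 473 in IP_RNase_ProK and 442.5 in mitoplast_RNase, and log2 fold changes against crude_RNase of -2.14, -3.27 and -3.37. Mt-nd6 as a percentage of the geometric mean of the other 12 was 45.5% for crude_RNase, 60.3% for IP_RNase, 61.6% for IP_RNase_ProK and 57.7% for mitoplast_RNase. Without the 3 most counted of the 12 (Mt-co1, Mt-nd5 and Mt-cyb) the ratio was 3.46%, 4.76%, 5.04% and 4.75%. Relative to crude_RNase these were 1.32, 1.35 and 1.27 times and 1.37, 1.46 and 1.37 times. Between IP_RNase and crude_RNase the genes called in the list for mitochondrial RNA numbered 1 with DESeq2, 45 with library size scaling, 14 on olfactory receptor genes and 1 with only the 2 groups compared, against 2. Calls over all genes numbered 1146, 25283, 4535 and 1266 in these settings, against 1684. There were 26483 genes tested, or 26008 with only the 2 groups. Leaving out 1 library gave 0 to 3, with 0 without IP_RNase 2 and 1 each without crude_RNase 2, crude_RNase 3 or IP_RNase 1. The calls over all genes then ran from 1198 to 1966. For complex I, 27 of 33 were called on olfactory receptor genes, where 4535 of all 26483 genes were. Leaving out 1 library gave log2 fold changes of Mt-nd6 from -3.57 to -2.91 for IP_RNase against crude_RNase, and from -0.21 to 0.06 for mitoplast_RNase against IP_RNase_ProK. Over all genes tested, fitting only the 2 groups compared gave 143 calls in place of 37 for IP_RNase_ProK against IP_RNase, 115 in place of 41 for mitoplast_RNase against IP_RNase and 11 in place of 0 for mitoplast_RNase against IP_RNase_ProK. Replicate numbers did not pair the libraries, as same-numbered deviations correlated at -0.17 to 0.10 over 18 pairs. With a replicate block Mt-nd6 was at -3.19, -4.38 and -4.45 against crude_RNase, and both lists kept their numbers of calls, 2 and 16. Mt-atp8, at 46 to 152 counts in captured libraries, lay closer than Mt-nd6 to the median olfactory receptor gene, which had 37 to 49 counts there.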
